A study of Mus musculus with 18 samples.

Results

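Epithelial-mesenchymal transition (EMT) genes were followed across 6 groups of day 3 cultures: the transcription factors SNAI1, SNAI2, TWIST1, TWIST2, ZEB1 and ZEB2, the cadherins CDH1 and CDH2, and the filament protein vimentin (VIM). Every probe of the array table that carries 1 of these 9 names was taken, which gave 15 of 45281 probes. Of the 15 probes, 11 passed the detection filter (22987 did among all probes), and all 9 genes were among the 16446 genes tested. The 4 probes that did not pass belong to ZEB2 (2 probes), CDH2 and VIM, and each of these genes was represented by another probe that was detected on all 18 arrays.

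In EMT, cells held together by E-cadherin (CDH1) loosen their junctions and take up a mesenchymal shape with vimentin filaments and often N-cadherin (CDH2). The SNAI and ZEB zinc finger proteins bind E-box sequences and repress CDH1 and other epithelial genes, and the TWIST proteins are basic helix-loop-helix factors that act on similar sequences. The same genes work in gastrulation, when epiblast cells leave the epithelium to form mesoderm, and most of them are also expressed by fibroblasts and other stromal cells.

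The study asked which signals drive murine embryonic stem (ES) cells toward endothelium when they grow on PA6 cells, a stromal line. The ES cells carried an EGFP knock-in at the tau locus and had been kept on embryonic fibroblast feeders with LIF before the experiment. Illumina MouseWG-6 v2.0 bead arrays measured RNA from ES/PA6 co-cultures and from mono-cultures of PA6 cells, all kept without serum, with 3 arrays in each group. Within each culture type, either no growth factor was added (-GFs), or FGF2 (20 ng/ml), or BMP4 (10 ng/ml per the labels, while the study's methods name a lower dose). Each biological replicate had 1 well per condition. The p-values and standard errors (SE) measure the spread between wells within groups, pooled for each gene over all 6 groups and both culture types. They say nothing of other cell lines. The spread itself could differ: for SNAI2 the SDs without factors and with BMP4 were 0.36 and 0.51 in co-cultures, against 0.10 and 0.08 in mono-cultures.

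Levels are log2 intensities after background correction and quantile normalization, and a level is compared here only with the same probe on other arrays. A change is a difference of 2 group means on this scale, from a limma fit on all genes. A gene was called where its Benjamini-Hochberg adjusted p was under 0.1 and its change exceeded 1 in either direction, and "rose" and "fell" are used for called changes. An array of a co-culture had 19365 to 20412 detected probes, and 1 of a mono-culture had 17125 to 18391. All 8 tested markers of pluripotent ES cells were detected in the co-cultures, while SOX2, DPPA4, UTF1 and TDGF1 were not detected on any mono-culture array. Of the other ES markers, POU5F1 was detected on all mono-culture arrays, at 6.59 to 7.41 against 13.00 to 13.37 where ES cells were present, DPPA5 on 1 array without factors and 2 with BMP4, NANOG on 1 with BMP4 and ZFP42 on 1 with FGF2. Of the 8 stroma markers, all were detected in the mono-cultures and 7 in the co-cultures, where POSTN was not.

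The genes whose level changed under a growth factor lie on chr2:167538195-167542814 (SNAI1), chr16:14705852-14709395 (SNAI2) and chr1:91801461-91848034 (TWIST2), and CDH1 lies on chr8:106603350-106670247 (RefSeq positions, GRCm38.p6). The 250 bases before the start of SNAI1 and TWIST2 are shown because these 2 genes had the largest changes under FGF2 in PA6 cells, in opposite directions, and because E-boxes are the sequences that SNAI, TWIST and ZEB proteins recognize. Capitals mark every E-box, searched as CANNTG, a pattern that reads alike on both strands and includes CACCTG with its reverse CAGGTG, the form preferred by SNAI and ZEB proteins.
SNAI1, chr2:167537945-167538194, plus strand: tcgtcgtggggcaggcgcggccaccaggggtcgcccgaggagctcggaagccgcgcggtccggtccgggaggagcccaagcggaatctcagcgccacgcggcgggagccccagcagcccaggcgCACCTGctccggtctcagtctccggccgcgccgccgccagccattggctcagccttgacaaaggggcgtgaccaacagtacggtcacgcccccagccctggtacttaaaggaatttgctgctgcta
TWIST2, chr1:91801211-91801460, plus strand: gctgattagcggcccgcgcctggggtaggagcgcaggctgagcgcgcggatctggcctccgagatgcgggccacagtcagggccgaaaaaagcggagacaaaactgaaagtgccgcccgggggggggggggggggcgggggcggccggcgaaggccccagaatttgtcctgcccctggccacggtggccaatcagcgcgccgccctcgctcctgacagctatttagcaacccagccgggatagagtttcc
The SNAI1 window held 1 E-box, a CACCTG that begins 126 bases before the gene's start, and the TWIST2 window held none. Among 32851 windows of the same length before RefSeq genes, 66.2% held a CANNTG and 17.2% held a CACCTG on either strand. These matches describe letters in the windows, and binding was not measured.

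The largest response of any member to a growth factor was that of TWIST2, a TWIST factor known for restraining differentiation of mesenchymal cells, in PA6 cells treated with FGF2. In mono-cultures without growth factors the 3 arrays read 12.28, 12.42 and 12.48. With FGF2 they read 9.81, 10.27 and 10.14. With BMP4 they read 12.46, 12.28 and 12.59. All 3 FGF2 arrays lay more than 2 log2 units below every other mono-culture array, and the BMP4 arrays overlapped those without factors. TWIST2 fell by 2.32 ± 0.285 (SE, n = 3) on the log2 scale under FGF2 (limma, adjusted p 3.32e-05), while its change under BMP4 was 0.05 (adjusted p 0.989). The call for FGF2 held in every processing alternative tried.

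In the co-cultures TWIST2 was far lower and did not fall under FGF2. In these bulk samples, fewer cells of a type and less RNA per cell cannot be told apart. Its 3 arrays without growth factors read 7.38, 8.34 and 7.64. With FGF2 they read 8.35, 9.12 and 8.13, and with BMP4 8.56, 8.97 and 7.92. Each treated well was above the untreated well of the same replicate number, yet the groups overlapped. The change was 0.74 under FGF2 (95% interval 0.14 to 1.35, adjusted p 0.159) and 0.70 under BMP4 (95% interval 0.09 to 1.30, adjusted p 0.355), and neither was called. When the replicate sets were fitted as a block, the adjusted p was 0.00831 for FGF2 and 0.029 for BMP4, and neither change reached the fold threshold. The FGF2 effect on TWIST2 differed between the culture types by 3.06 ± 0.403 (SE) on the log2 scale (interaction contrast, adjusted p 0.000181). It was the 1 member called among 9 in that contrast, where 7.39% of all genes were called, 3.99% in this direction. For BMP4 the interaction was 0.65 (adjusted p 0.68), and no member was called (0.559% of all genes).

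**Figure D1:**
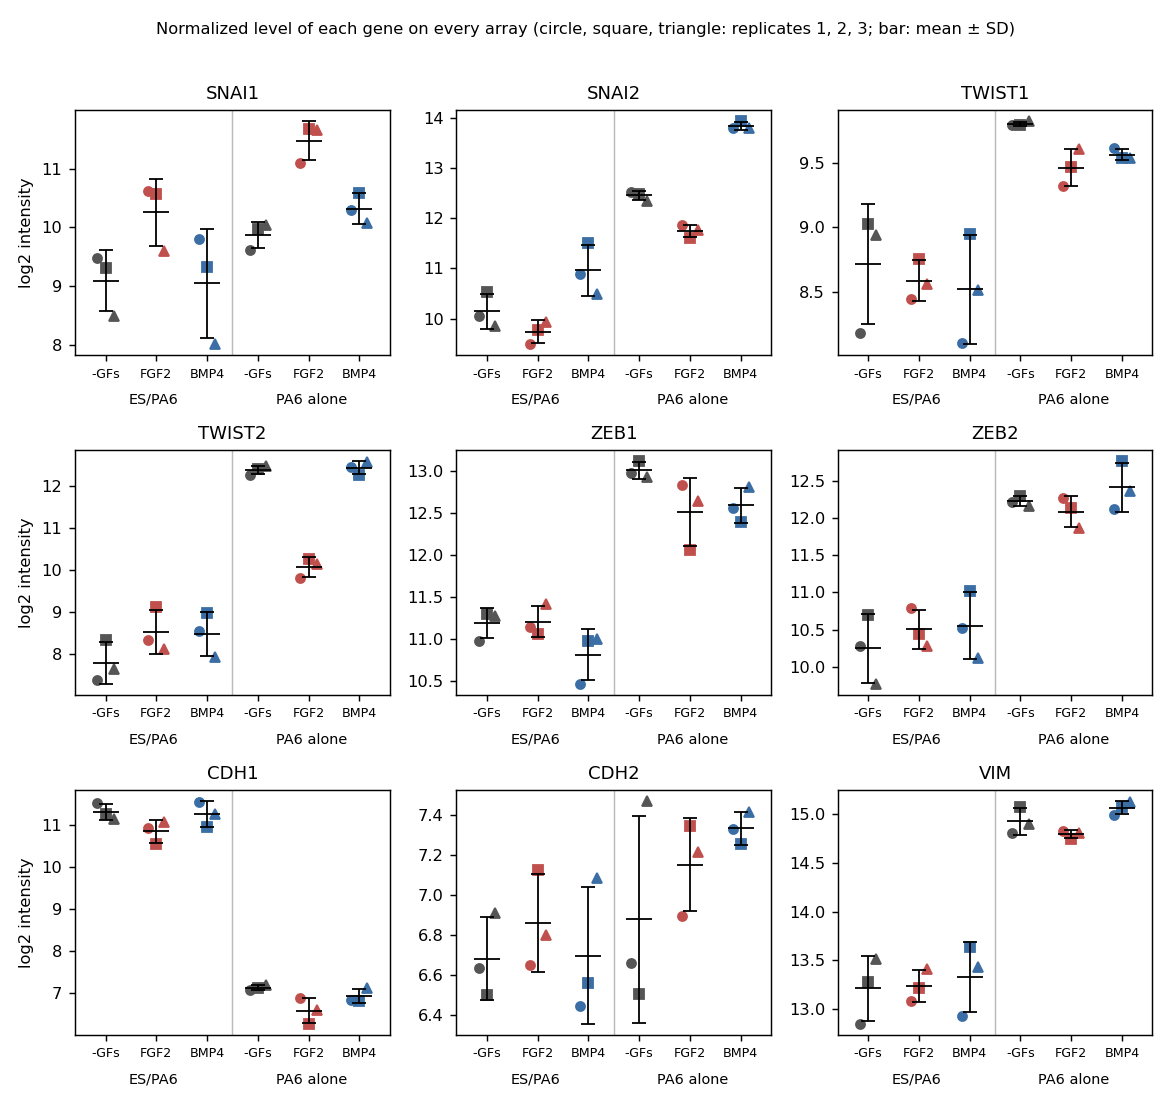
Normalized log2 intensity (y axis, scaled for each gene) of the 9 genes on all 18 arrays, by group (x axis). Circles, squares and triangles are replicates 1, 2 and 3, and the bar is the mean ± SD of 3 arrays. TWIST2 drops in FGF2-treated PA6 cells to 10.07 from 12.39, SNAI2 is highest in BMP4-treated PA6 cells (13.84), and CDH1 runs from 10.54 to 11.55 where ES cells are present and from 6.27 to 7.19 on those of PA6 cells alone.

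SNAI1, the prototype CDH1 repressor and an early gene of gastrulation, was higher with FGF2 in both culture types. In the co-cultures the arrays read 9.48, 9.31 and 8.49 without factors, 10.61, 10.56 and 9.60 with FGF2, and 9.80, 9.32 and 8.02 with BMP4. The third replicate was lowest in each of these groups, and the difference between FGF2 and -GFs within a replicate set was 1.13, 1.25 and 1.10. SNAI1 rose by 1.16 ± 0.387 (SE, n = 3; limma, adjusted p 0.0964), and it was the only member called among 9 for FGF2 in the co-cultures (3.34% of all genes). When the replicate sets were fitted as a block, the adjusted p was 0.000927. The call was lost without -GFs replicate 2 (1.27, adjusted p 0.151), without -GFs replicate 3 (0.86, adjusted p 0.321), without FGF2 replicate 1 (0.98, adjusted p 0.307) and without FGF2 replicate 2 (1.01, adjusted p 0.238). Without -GFs replicate 2, TWIST2 was called instead (1.02, adjusted p 0.0671).

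In PA6 mono-cultures the SNAI1 arrays read 9.62, 9.97 and 10.04 without factors, 11.09, 11.68 and 11.65 with FGF2, and 10.30, 10.59 and 10.07 with BMP4. The FGF2 arrays lay above all others. SNAI1 rose by 1.60 under FGF2 (adjusted p 0.00988), and its change under BMP4 was 0.44 (adjusted p 0.76). The FGF2 effects in the 2 culture types differed by -0.44 with a 95% interval from -1.60 to 0.72 (adjusted p 0.692). A second SNAI1 probe was dimmer and detected on 7 of 18 arrays. There SNAI1 was at least 2.83-fold higher with FGF2 in the mono-cultures (adjusted p 0.000394 over all kept probes). In the co-cultures this probe was detected on 2 FGF2 arrays, its groups overlapped, and its change of 0.31 was not called (adjusted p 0.726). It was not detected on any -GFs array of either culture type, so it gives no value for the difference between the culture types.

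SNAI2, a close relative of SNAI1 that is abundant in mesenchymal and neural crest cells, responded to BMP4 in PA6 cells. Its mono-culture arrays read 12.53, 12.48 and 12.35 without factors and 13.79, 13.93 and 13.80 with BMP4. With FGF2 they read 11.86, 11.61 and 11.77. The 3 groups did not overlap, with BMP4 highest and FGF2 lowest. SNAI2 rose by 1.39 ± 0.216 (SE, n = 3) under BMP4 (adjusted p 0.00213), the 1 member called among 9 in that comparison (1.41% of all genes). Under FGF2 the change was -0.71 (adjusted p 0.0371), short of the fold threshold.

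In the co-cultures SNAI2 read 10.05, 10.54 and 9.85 without factors, 10.88, 11.51 and 10.50 with BMP4, and 9.50, 9.79 and 9.94 with FGF2. Each BMP4 well was above the untreated well of its set, by 0.84, 0.97 and 0.65, but the groups overlapped. The change of 0.82 (adjusted p 0.0976) was below the fold threshold, and no member was called for BMP4 in the co-cultures (0.76% of all genes; 2 of 9 members and 1786 of all genes had an unadjusted p under 0.05). SNAI2 was called there without -GFs replicate 2 (1.02, adjusted p 0.0806) and without BMP4 replicate 3 (1.05, adjusted p 0.0287). The BMP4 effects on SNAI2 in the 2 culture types differed by -0.57, with a 95% interval from -1.22 to 0.08 (adjusted p 0.602).

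**Figure D2:**
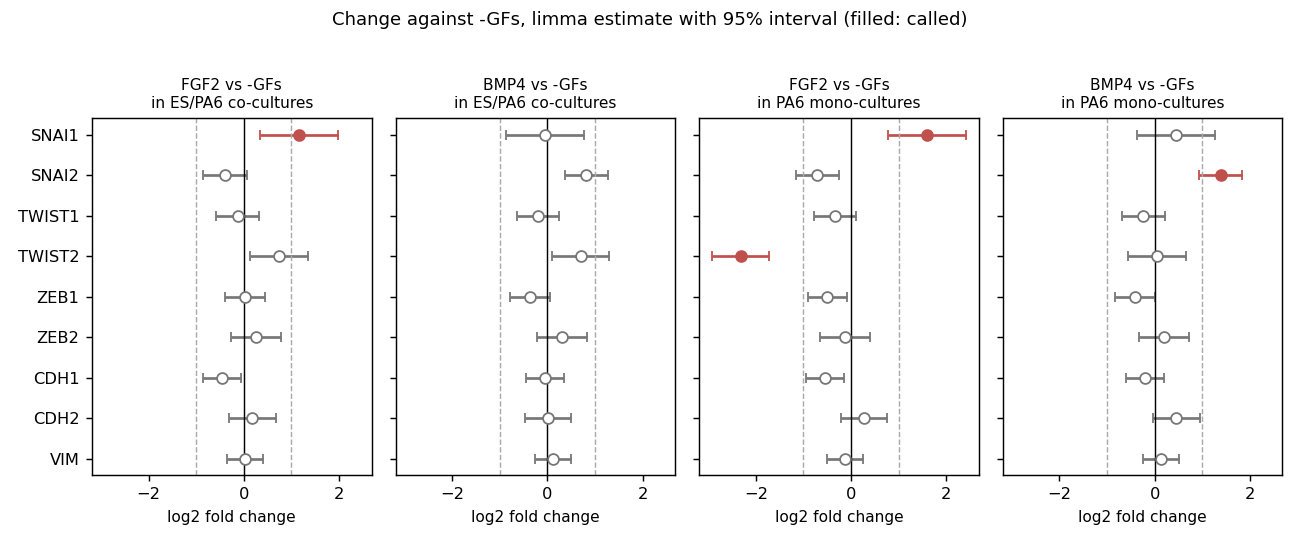
Change of each gene against -GFs (x axis, log2 fold change) under each growth factor, by culture type. Points are limma estimates with 95% intervals, filled red where called, and dashed lines mark a change of 1 in either direction. Filled points are SNAI1 under FGF2 in both culture types (1.16 and 1.60), TWIST2 under FGF2 in PA6 cells (-2.32) and SNAI2 under BMP4 in PA6 cells (1.39).

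FGF2 and BMP4 were also set against each other. In the mono-cultures 3 of 9 members were called (5.82% of all genes, with 2.88% higher and 2.94% lower with FGF2). TWIST2 (-2.37) and SNAI2 (-2.09) were lower with FGF2 than with BMP4, and SNAI1 (1.15, adjusted p 0.0561) was higher. These members and VIM (-0.27, not called) were the 4 of 9 that did not overlap (33.1% of all genes). The SNAI1 call was lost without FGF2 replicate 2 or 3 and without BMP4 replicate 1 or 3, with adjusted p-values of 0.117 to 0.176. In the co-cultures 2 of 9 were called (2.85% of all genes). SNAI2 was lower with FGF2 (-1.22, adjusted p 0.00316) and SNAI1 higher (1.21, adjusted p 0.0924), although the SNAI1 arrays of the 2 groups overlapped. The 2 of 9 that did not overlap (18.8% of all genes) were SNAI2 and ZEB1 (0.39, not called). The SNAI1 call was lost without FGF2 replicate 1 (1.03) or 2 (1.06) and without BMP4 replicate 2 (1.35) or 3 (0.69). The SNAI2 difference was 0.95 in size, below the fold threshold, without BMP4 replicate 2. These differences share arrays with those against -GFs, and the FGF2 and BMP4 changes share the -GFs arrays. By group mean SNAI1 was highest with FGF2 and SNAI2 highest with BMP4 in both culture types.

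CDH1, the adhesion molecule of epithelia and of ES cell colonies, was high wherever ES cells were present. Its 3 co-culture arrays without factors read 11.51, 11.25 and 11.15, those with FGF2 10.92, 10.54 and 11.06, and those with BMP4 11.55, 10.94 and 11.26. In the mono-cultures the arrays ran from 6.27 to 7.19. Every FGF2 co-culture array lay below every untreated one, yet the change of -0.46 missed the thresholds (adjusted p 0.183). Taken set by set, the difference was -0.59, -0.72 and -0.09. A second, dimmer CDH1 probe was detected on all 3 untreated co-culture arrays and on none with FGF2, where it was at least 1.62-fold lower. Its change of -0.82 (adjusted p 0.0103 over all kept probes) was short of the fold threshold and not called. In PA6 cells the change of CDH1 under FGF2 was -0.54 (adjusted p 0.0624). There the brighter probe was itself close to the detection limit (intensity 140.4 to 223.9 with FGF2). The dimmer probe was not detected on any mono-culture array. Under BMP4 the change of CDH1 at its brighter probe was -0.05 with ES cells present and -0.20 without them. At the dimmer probe the BMP4 co-culture arrays (5.93 to 6.19, detected on 2) lay below the untreated ones (6.35 to 6.86). The group means there were 6.10 and 6.57, a change short of the fold threshold.

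The other members changed little with either growth factor. ZEB1 and ZEB2, zinc finger and homeodomain repressors, had changes against -GFs from -0.50 (ZEB1 with FGF2 in PA6 cells, adjusted p 0.114) to 0.30 (ZEB2 with BMP4 in the co-cultures, adjusted p 0.776). The changes of TWIST1, the relative of TWIST2 that is needed for head mesenchyme and mesoderm, were between -0.34 and -0.13 in the 4 comparisons, with adjusted p-values of at least 0.347. Those of VIM were between -0.13 and 0.14. CDH2 changed by 0.02 to 0.45, and its levels of 6.45 to 7.47 lay close to the dim end of the arrays, where the offset of the normalization understates changes. In the PA6 mono-cultures the FGF2 arrays of 6 of 9 members did not overlap those without factors, where 33.8% of all genes did not overlap and 2 of 9 members were called (5.27% of all genes). For BMP4 4 of 9 did not overlap (21.5%). In the co-cultures 2 of 9 (19.3% of all genes) did not overlap for FGF2 and none for BMP4 (13% of all genes).

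**Figure D3:**
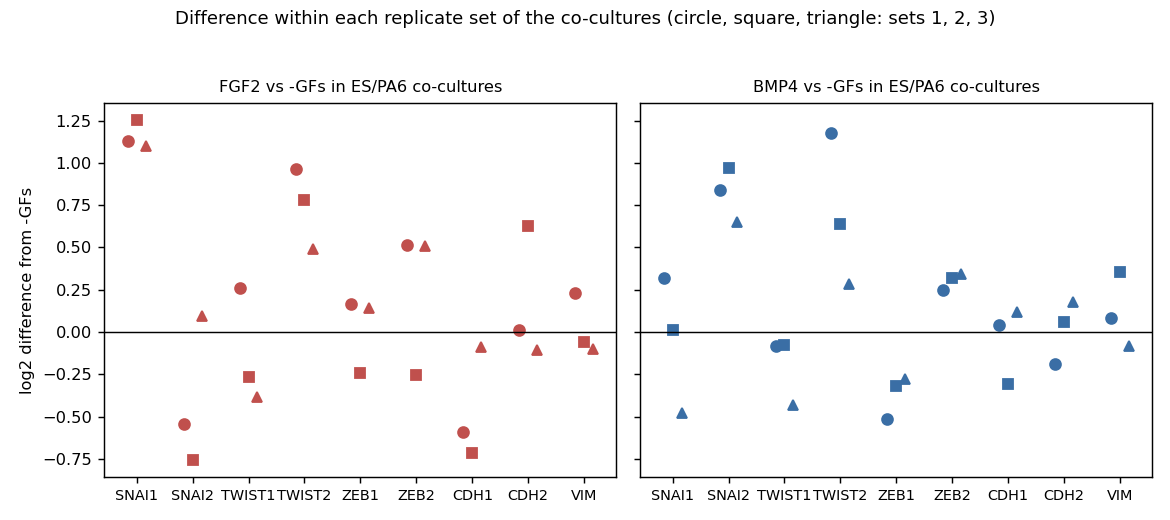
Difference from the -GFs well of the same replicate number in the ES/PA6 co-cultures (y axis, log2), for FGF2 and BMP4 and each of the 9 genes. Circles, squares and triangles are replicate sets 1, 2 and 3. For SNAI1 under FGF2 the 3 sets lie between 1.10 and 1.25, for SNAI2 under BMP4 between 0.65 and 0.97, and for TWIST2 all 3 sets lie above 0 with either factor.

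Culture type separated the members more than either growth factor. Without growth factors 7 of 9 members were called between co-cultures and mono-cultures (39% of all genes), 6 lower (19.5%) and 1 higher (19.4%) in the co-cultures, and 8 of 9 did not overlap (70.4% of all genes). CDH1 was higher by 4.18 ± 0.186 (SE), an 18.1-fold difference, with an adjusted p of 1.28e-11. The difference was 2.72 with the mean of both CDH1 probes, and 3.47 both without background correction and with cubic spline normalization. TWIST2 was lower by far more than the other factors, at -4.61 (adjusted p 7.35e-10). The differences of the others called were -2.31 for SNAI2, -1.98 for ZEB2, -1.82 for ZEB1, -1.72 for VIM and -1.09 for TWIST1. SNAI1 differed by -0.78 (adjusted p 0.0869) and CDH2 by -0.20 (adjusted p 0.47), and neither was called. The TWIST1 call was lost without -GFs co-culture replicate 1 (-0.82) and, at -0.93 each, without background correction and with cubic spline normalization. Over all genes the median difference was -0.11.

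Stroma markers moved with this comparison: 7 of 8 were lower in the co-cultures without factors, with a median difference of -1.59 and a range from -2.04 to -0.72. SNAI1, ZEB1, ZEB2, VIM and TWIST1 lay inside that range, and SNAI2 and TWIST2 lay below it. Mean levels of the stroma list ran from 10.57 to 10.90 on the 3 co-culture arrays and from 12.17 to 12.44 on the 3 mono-culture arrays. Their part in the member differences was not tested. With FGF2, TWIST2 was lower in the co-cultures by 1.54, inside the range of the stroma markers in that medium (-2.17 to -0.75). With BMP4 it was lower by 3.96, below their range of -2.27 to -0.98. CDH1 was higher in the co-cultures by 4.18 to 4.33 in the 3 media, and the 8 ES markers by 4.97 to 10.31. Apart from POU5F1, each ES marker was undetected on most or all PA6 arrays, and POSTN, at -2.04 the lowest stroma marker, was not detected in the co-cultures, so these differences depend on the background level and are no bounds.

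**Figure D4:**
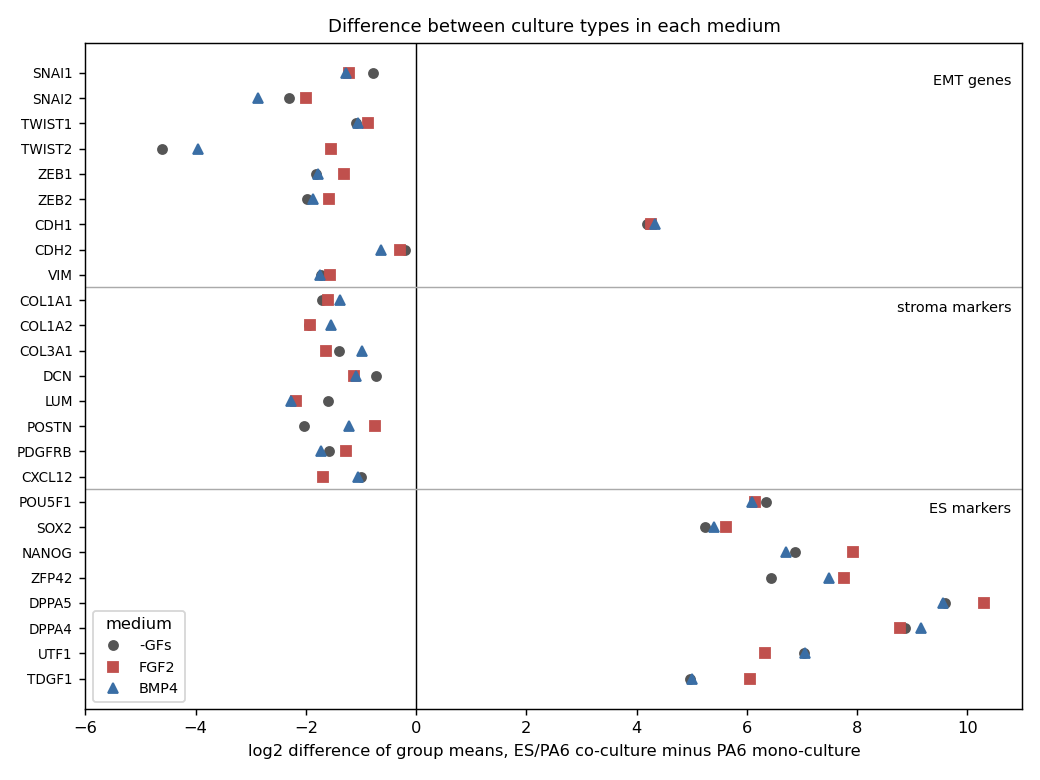
Co-culture mean minus mono-culture mean (x axis, log2) in each medium (circles -GFs, squares FGF2, triangles BMP4), for the 9 genes, 8 stroma markers and 8 ES markers. Most members lie among the stroma markers, CDH1 lies at 4.18 to 4.33 on the side of the ES markers, and TWIST2 moves from -4.61 without factors to -1.54 with FGF2.

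Ordered by mean level, the 3 mono-culture groups stood above the 3 co-culture groups for SNAI2, TWIST1, TWIST2, ZEB1, ZEB2 and VIM, and the ranges of the 3rd and 4th groups did not overlap for any of these 6. CDH1 had the opposite order, again without overlap between the culture types. For SNAI1 the order mixed the culture types: FGF2-treated PA6 cells were highest (11.47 ± 0.332, SD, n = 3), and FGF2-treated co-cultures (10.26 ± 0.574) overlapped the PA6 groups with BMP4 (10.32 ± 0.263) and without factors (9.87 ± 0.223). For CDH2 every group overlapped its neighbour in the order.

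Genes with the most similar pattern were named by Pearson's correlation over the 18 arrays, after the mean of each culture type was subtracted, among genes called in at least 1 comparison with -GFs. For SNAI1 they were GALNT2 (r = 0.90), SEMA5A (0.89) and B230343A10RIK (0.89). For SNAI2 they were CAR5B (0.95), ALDH1A7 (0.94) and DGAT2 (0.94). For CDH1 they were PLSCR2 (0.82), LEPREL1 (0.80) and BMF (0.77). The arrays share culture sets and treatments, and the values are descriptions.

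Around CDH1, epithelial and junction genes were divided by FGF2 in the co-cultures. This gene list and those below were chosen with earlier results of these data known. Of 35 listed genes 27 were tested, and 6 fell and 2 rose with FGF2, against 1.2% and 2.14% of all genes. The largest falls were in RBM35A (now ESRP1), an epithelial splicing regulator, at -2.18 (from 11.80 ± 0.0761 to 9.62 ± 0.363, SD, n = 3), in GRHL2, a transcription factor that maintains epithelial junction genes including CDH1, at -1.77 (from 9.17 ± 0.361 to 7.39 ± 0.415), and in CLDN6, a tight junction claudin of early embryonic epithelium, at -1.58 (from 11.42 ± 0.311 to 9.84 ± 0.376). The adhesion genes PKP3 (1.06) and DSG2 (1.05), both of the desmosome, rose. The list's median was -0.13, beside -0.01 for all genes. Of the 8 ES markers, NANOG (1.25) and ZFP42 (1.19) rose under FGF2 in the co-cultures, and the median of the 8 was 0.29. The means of UTF1 (12.12 to 11.39), DPPA4 (13.88 to 13.65) and POU5F1 (13.19 to 13.09) were lower with FGF2, none of them called. None of the 8 stroma markers was called (median -0.38). The part of the ES and stroma markers in these changes was not tested.

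With BMP4, 4 genes of the same list were called higher in the co-cultures and none lower (0.31% and 0.45% of all genes). The simple-epithelium keratins KRT8 (1.47) and KRT19 (1.43) rose, and the desmosomal plakin DSP was at least 2.16-fold higher than in -GFs, where it was not detected. The list's median was 0.30, beside 0.00 for all genes. The surface ectoderm markers KRT14 (2.16) and TRP63 (1.28) rose too, which is both of the 2 tested, and their part was not tested. TRP63 was also detected on all arrays of PA6 cells alone (group means 8.12 to 8.67). These means lay above that of the untreated co-cultures (7.52), so its signal was not limited to cultures with ES cells. Between FGF2 and BMP4, 9 of the 27 genes were lower with FGF2 and none higher (1.03% and 1.82% of all genes). In PA6 cells 1 gene of the list fell with FGF2, the polarity gene LLGL2 (-1.01; 2.56% of all genes), and none was called with BMP4 (1.41%). Between culture types, 21 of 27 were higher in the co-cultures and 1 lower (19.4% and 19.5% of all genes), among them RBM35A and GRHL2, which were not detected in PA6 cells: RBM35A was at least 45.3-fold higher and GRHL2 at least 7.29-fold higher.

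**Figure D5:**
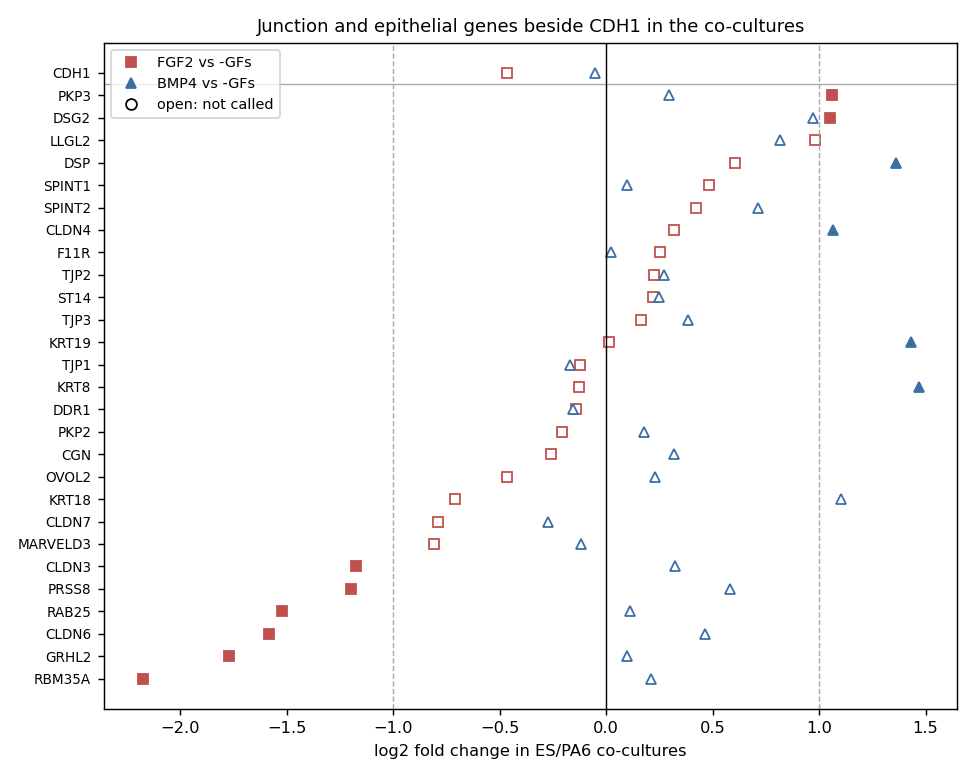
Change against -GFs in the ES/PA6 co-cultures (x axis, log2 fold change) of the 27 tested junction and epithelial genes, ordered by their change under FGF2, with CDH1 at the top. Squares are FGF2 and triangles BMP4, filled where called. RBM35A (-2.18) and GRHL2 (-1.77) stand at the low end with FGF2, near 0 with BMP4, and the CDH1 symbols are open for both.

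Mesenchymal genes were divided in PA6 cells. Of 21 tested, 2 rose and 2 fell with FGF2 in the mono-cultures (2.71% and 2.56% of all genes): TGFBI (2.71) and TNC (2.38), 2 extracellular matrix proteins, rose, while S100A4 (-1.62) and THY1 (-1.11), a fibroblast surface protein, fell. The same direction was seen in the co-cultures for TNC (2.92), TGFBI (1.10, adjusted p 0.0986) and THY1 (-1.08), the 3 genes of the list called there (3.34% of all genes). None was called with BMP4 in the co-cultures (0.76% of all genes) or in PA6 cells (1.41%), and 13 of 21 were lower in the co-cultures than in the mono-cultures without factors (19.5% of all genes).

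Among 25 tested partners and regulators of the SNAI, TWIST and ZEB proteins, the clearest changes were in the ID genes, whose products bind E proteins and so limit basic helix-loop-helix factors such as TWIST. In PA6 cells ID1 (4.31), ID3 (3.07) and ID2 (1.85) rose with BMP4, and with ID4 made up the 4 genes higher (0.839% of all genes), while KLF4 fell (-1.07, 0.572% of all genes lower). With FGF2, ID3 rose (2.20, 2.71% of all genes higher) and ID4 fell (-1.91, 2.56% lower). In the co-cultures KLF4 (1.80), a pluripotency-associated factor, and the organizer gene GSC (1.54) rose with FGF2 (2.14% of all genes higher). No gene of the list was called with BMP4 there (0.76% of all genes).

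The 7 tested cadherins and catenins beside CDH1 and CDH2 gave 1 call against -GFs: CDH3 (P-cadherin) was at least 1.27-fold lower in FGF2-treated PA6 cells, where it was not detected (adjusted p 0.0013). In that comparison 2.56% of all genes were called lower. CDH3 was also higher by 2.40 in the co-cultures than in the mono-cultures, in the same direction as CDH1. Of 5 tested filament genes related to VIM, SYNM, a partner of vimentin, fell in PA6 cells with FGF2 (-2.78) and BMP4 (-1.08), and INA, a neuronal filament, fell with FGF2 in the co-cultures (-1.56). Of all genes, 2.56%, 0.572% and 1.2% were called lower in these comparisons, in that order. Between culture types 4 of the 5, among them NES and INA, were higher in the co-cultures (19.4% of all genes), while VIM and SYNM (-1.66) were lower.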

How the data were processed

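The authors scanned the bead arrays with Illumina software (GenomeStudio 2011.01 in the submitters' processing notes) and deposited a non-normalized intensity for each probe (linear scale, 55.5 to 72879) with a detection p-value against negative control beads. The deposited p-value columns were used for the filter and for the background model. The table holds 45281 probes, and 5 stray lines at its end were left out. Per the labels, columns were matched to 18 samples by name.

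Background correction and quantile normalization were done with neqc of limma 3.58.1 in R 4.3.3, with an offset of 16 before log2, which understates changes of dim genes. The study's methods name cubic spline normalization, run here as an alternative. A probe was kept if it was detected (p under 0.05) on 3 or more of the 18 arrays, and the probe with the largest mean stood for its gene. A limma fit of 6 group means on all 18 arrays gave all contrasts. A gene not detected on any array of a group has only a bound, written "at least". It sets the bright mean against, for each dim array, its own signal there or the array's dimmest detected signal, whichever is higher.

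Precision is limited by 3 arrays per group. The smallest p of a permutation test at this size is 0.1. Normalized arrays of a group correlated across genes at 0.981 to 0.992, and 0 pairs were identical. Per the labels each biological replicate had 1 well per condition, and deviations from group means correlated at 0.325 to 0.521 in the 9 same-numbered co-culture pairs. In the mono-cultures these correlations were 0.0628 to 0.164. The scripts were tested on simulated data.

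Members and gene lists were chosen with earlier results of these data known. All members are named, and from each list the 3 highest and the 3 lowest changes called against -GFs. Genes named between culture types were among those or chosen after their values were seen. Alternatives were other background corrections, normalizations, offsets, filters, probe rules, empirical Bayes settings, array weights, thresholds, sample sets, a replicate block and leaving out each array. Names are those of the array and can be old.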

Additional observations from a re-analysis of the deposited data

Results flagged for a closer look

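The FGF2 effect on TWIST2 differed between the culture types, by an interaction contrast of 3.06 on the log2 scale (limma, adjusted p 0.000181 over 16446 genes). The change was 0.74 in the ES/PA6 co-cultures, where it was not called, and -2.32 in the PA6 mono-cultures. At the brightest probes no other member had an effect of FGF2 or BMP4 that differed between culture types past both thresholds. Groups of 3 arrays are too small for a check for single outlying arrays.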

How the results depend on the processing

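Of 81 combinations of a member and a comparison, 71 kept their side of the thresholds under every alternative. Among 1620 alternative values 27 lost a call, 7 gained one and 0 reversed a called change. For FGF2 against -GFs in the co-cultures, the member count went from 1 to 0 (SNAI1 lost) with no filter on dim probes, the mean of kept probes, trend and robust empirical Bayes, adjusted p under 0.05, and only the arrays of the culture type. Under the same 5 settings the count for FGF2 against BMP4 in the co-cultures went from 2 to 1. With no fold change threshold the count was 1 for BMP4 in the co-cultures (SNAI2) and 4 for FGF2 in the mono-cultures (SNAI2 and CDH1 added). Leaving out 1 array gave 0 to 1 members for FGF2 and 0 to 1 for BMP4 in the co-cultures, 0 to 2 for FGF2 against BMP4 there and 2 to 3 in the mono-cultures, and 6 to 7 between culture types. A group left with 2 arrays shares the spread of the others.

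With the replicate block no member call changed, with 1 member called for FGF2 in the co-cultures, but the number of all genes called went from 125 to 215 for BMP4 in the co-cultures and from 92 to 305 for the BMP4 interaction. Over all alternatives the number of all genes called ran from 125 to 1489 for FGF2 (550) and from 10 to 280 for BMP4 (125) in the co-cultures, from 459 to 3083 for FGF2 (867) and from 113 to 632 for BMP4 (232) in the mono-cultures, from 122 to 1230 (469) and from 522 to 3332 (957) for FGF2 against BMP4 in the 2 culture types, from 3668 to 11712 (6408) between culture types, and from 528 to 2467 (1216) and 42 to 305 (92) for the interactions. The slide as a block was not run, since no slide is named in the table used here. Dim probes, such as those of CDH2 and the second probes of SNAI1 and CDH1, have compressed changes.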

Other observations

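Markers of other cell types gave few calls beside the member results. Of 5 tested endothelial markers, PECAM1 rose with BMP4 in the co-cultures (1.17, adjusted p 0.0994) and TEK fell with FGF2 in the mono-cultures (-1.71), and none was called with FGF2 in the co-cultures. Without factors PECAM1 already read 8.99 in the co-cultures and TEK 8.06 in PA6 cells alone, each detected on all 3 arrays. Neither change is therefore read as a change of endothelium. Of 2 tested neural markers, ZIC1 was detected on all 3 -GFs co-culture arrays, which ran widely from 6.52 to 10.23, and on none with BMP4. The 1 tested mesoderm marker, the gene T, changed by 1.43 with BMP4 and 0.39 with FGF2 in the co-cultures and was not called. The stroma marker COL3A1 fell with BMP4 in both culture types, by 1.16 in the co-cultures and by 1.58 in the mono-cultures, and POSTN fell with FGF2 in the mono-cultures by 1.25.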
